A study of Bos taurus with 4 samples.

Results

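Translation initiation, elongation and termination factors were followed in bovine gamma delta T cells treated with an apple polyphenol extract. The members are the genes whose single symbol in the platform's probe table begins with EIF, EEF, GSPT or PABPC and a digit, or is ETF1, without the kinase genes EIF2AK3 and EIF2AK4 and the older EIF2C symbols of the Argonaute genes. They are 54 of the 9155 genes with a named probe set, measured by 74 probe sets in all. A single probe set stands for 37 genes, and 17 have more than 1. In the APP group, cells of calves 301 and 303 received an aqueous apple polyphenol extract for 4 h, at 42.2 µg/ml according to the series' design text. In the PBS group, cells of the same 2 calves received phosphate-buffered saline as vehicle for 4 h. Each group holds 2 Affymetrix arrays, 1 from each calf. All cells were gamma delta T cells sorted from peripheral blood to over 97% purity and rested overnight. The sample labels give the calves' age as 1 to 6 months and the design text calls them neonatal. No label names the breed or sex of the calves, the origin of the extract or the day of hybridization, and a batch that followed the treatment cannot be told apart from it.

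Protein synthesis starts when the cap-binding complex eIF4F and the poly(A)-binding protein engage an mRNA and recruit the small ribosomal subunit, which carries eIF1, eIF1A, eIF3 and the ternary complex of eIF2, GTP and initiator tRNA. Elongation factors then deliver aminoacyl-tRNA and move the ribosome along, and the release factors eRF1 and eRF3 end the chain at a stop codon. Resting lymphocytes translate little and raise protein synthesis when activated, through mTORC1 and MAP kinase signals that act on eIF4E and its repressors, while kinases that phosphorylate eIF2 alpha lower initiation under stress.

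Each value below is a log2 ratio of a gene to its own median over the 4 arrays, so that a value of 1 lies 2-fold above the median of that gene. Arrays can be compared within a gene, and levels cannot be compared between genes. For the same reason the label of the cells could not be checked against the levels of T cell genes, and changes of markers are all that can be given. A change is APP minus PBS within a calf, given as the mean of the 2 calves ± SD (n = 2 calves), and a gene rose or fell where the adjusted p was under 0.05 over all 9155 genes (limma, calf as block). In cell populations such as these, fewer cells with a transcript and less transcript per cell cannot be told apart.

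More members rose than fell. Among the 54 there were 25 that rose, 12 that fell and 17 that did not pass, where 23.0% of all genes rose and 29.7% fell. The median change was 0.22 over the members (0.21 in calf 301 and 0.26 in calf 303) and 0.01 over all genes. Changes of at least 1.5-fold in both calves were rises for 15 members and a fall for 1, against 7.84% and 14.7% of all genes. At least 2-fold rises in both calves were seen for 7 members, namely GSPT1, ETF1, EIF3B, EEF1E1, EIF4A1, EIF4G1 and EIF6, against 3.50% of all genes, and GSPT2 was the member with a 2-fold fall in both, against 6.29%. Both APP arrays lay above both PBS arrays for 30 members and below them for 15, against 36.6% and 37.2% of all genes. Groups said below to be apart or not to overlap are meant in this way, which by itself was common on these arrays.

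With treatment as the only term, 24 members rose and 7 fell, against 1399 and 2161 of all genes. Where 1 array is left out as well, 1 calf is in 1 treatment alone, and the difference between the calves enters the change. In fits of that kind that left out 1 array, 20 rose and 3 fell without APP of calf 301, 20 and 6 without APP of calf 303, 16 and 1 without PBS of calf 301, and 16 and 3 without PBS of calf 303. Over all genes these fits gave 745 to 1292 rises and 1305 to 2012 falls. Called in each of these 4 fits were the rises of EIF1, EIF1B, EIF2S1, EIF3B, EIF3CL, EIF3J, EIF4A1, EIF4G1, EIF4E, EIF4EBP1, PABPC4, EIF6, EEF1E1, GSPT1 and ETF1, and the fall of GSPT2.

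The direction of the smaller rises depends on the scale of the arrays. The bacterial hybridization controls bioB, bioC and bioD, which are added to the hybridization mix in fixed amounts, had mean log2 ratios of 0.28 and 0.55 in the APP arrays of calves 301 and 303, against -0.48 and -0.39 in their PBS arrays. When the arrays are scaled to these controls, changes are lower by 0.76 in calf 301, 0.94 in calf 303 and 0.85 in their mean, the median of all genes is -0.84 and that of the members -0.64, and 10 of the 25 rises stay above 0 (40%), as do 499 of the 2104 rises of all genes (23.7%). Of these 10, the rises of GSPT1, ETF1, EIF3B, EEF1E1 and EIF4A1 are still called, and 5 are not. On this scale limma used the same variance for every gene, unlike in the main test. Calls and adjusted p on this scale are therefore not on the same footing as the main ones. The part of the controls in the results was not tested. Changes are therefore to be read relative to the other genes of the array.

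**Figure D1:**
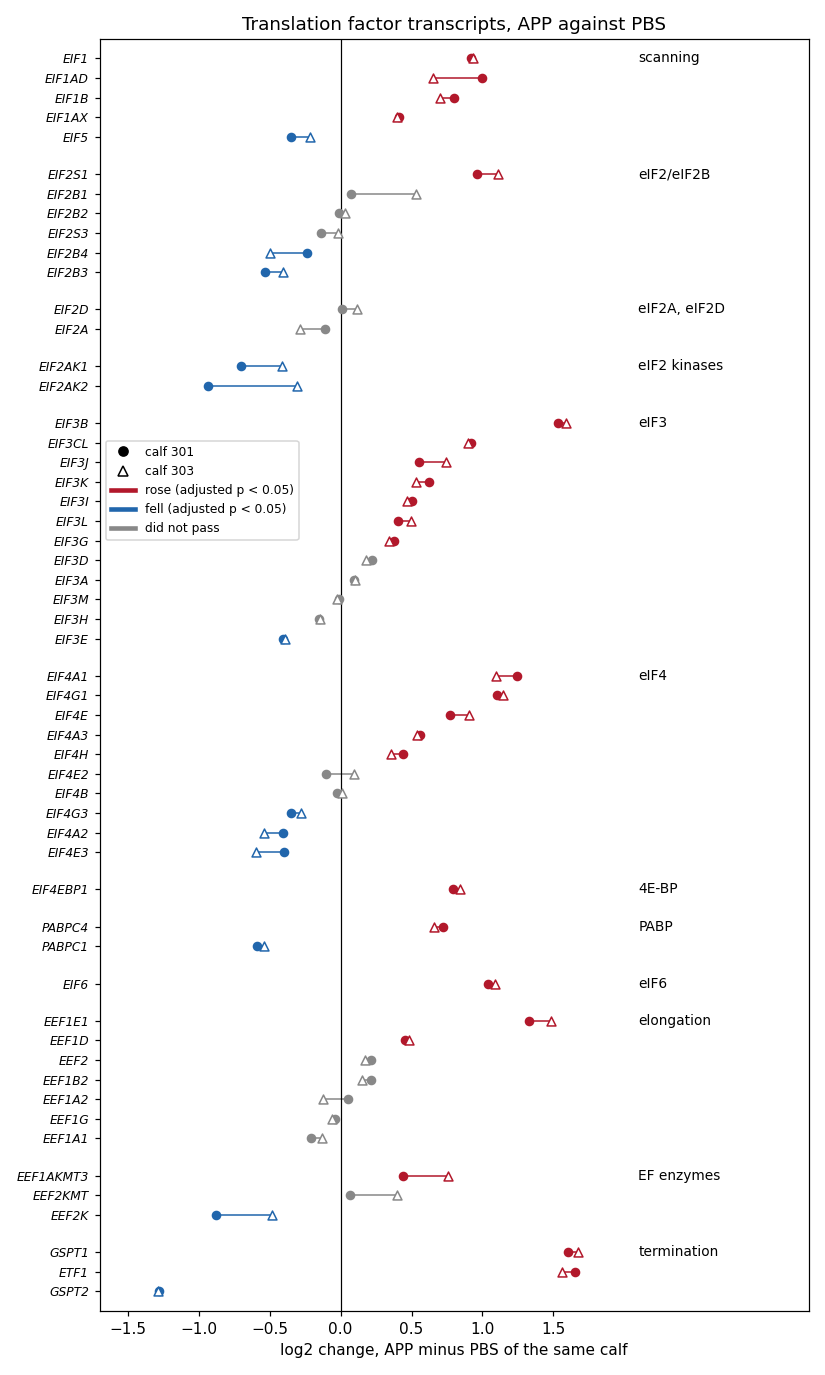
Log2 change (APP minus PBS of the same calf, x axis) of the 54 members, grouped by role and ordered within a group by mean change. Circles are calf 301, triangles calf 303, and colours mark adjusted p under 0.05. GSPT1 and ETF1 lie highest at 1.64 and 1.61 and GSPT2 lowest at -1.28 in the mean of the calves, and scaling to the hybridization controls would move circles down by 0.76 and triangles by 0.94.

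Termination factors held the largest rises and the largest fall of the members. GSPT1, which encodes eRF3a, the GTPase that assists release of the finished chain, stood at 0.57 and 0.61 in the APP arrays of calves 301 and 303, against -1.03 and -1.06 in their PBS arrays. It rose 3.11-fold (1.64 ± 0.051, adjusted p = 2.99e-05), and ETF1, which encodes eRF1, the protein that reads the stop codon, rose 3.05-fold (1.61 ± 0.065, adjusted p = 3.32e-05). ETF1 stood at 0.52 and 0.68 in the APP arrays of calves 301 and 303, against -1.14 and -0.88 in their PBS arrays. For both genes the APP arrays lay above the PBS arrays with a wide gap, and the rises stayed above 0 on the scale of the hybridization controls (0.79 and 0.76). GSPT2, the gene of eRF3b and in human a copy of GSPT1 without introns, moved the other way, with values of -0.80 and -0.74 in the APP arrays of calves 301 and 303, against 0.48 and 0.55 in their PBS arrays. It fell 2.43-fold (-1.28 ± 0.0054, adjusted p = 6.63e-05), and its groups did not overlap.

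Of 5 genes grouped under start codon scanning, 4 rose and EIF5 fell, against 23.0% of all genes that rose and 29.7% that fell. The 4 include EIF1AD, which is placed there by its eIF1A-like domain and is not known as a scanning factor. When scaled to the hybridization controls, EIF1 came to 0.075 (adjusted p = 0.638 in limma's test) and the other 3 rises lay below 0. EIF1, which encodes the factor that guards start codon choice, stood at 0.35 and 0.41 in the APP arrays of calves 301 and 303, against -0.57 and -0.52 in their PBS arrays. It rose 1.90-fold (0.93 ± 0.0096, adjusted p = 0.000249), and its 2 probe sets changed by 0.61 and 1.24. Probe sets of a gene differed by more than 0.5 for 7 of the 17 members that have several, against 34.5% of all such genes. EIF1B, a close relative of EIF1, stood at 0.33 and 0.30 in the APP arrays of calves 301 and 303, against -0.47 and -0.40 in their PBS arrays, and rose 1.68-fold (0.75 ± 0.07). The groups were apart for both genes, and since they resemble each other in sequence their probe sets may share signal. EIF1AD, the gene of a nuclear protein with an eIF1A-like domain, stood at 0.22 and 0.35 in the APP arrays of calves 301 and 303, against -0.78 and -0.30 in their PBS arrays, and its rise of 1.77-fold (0.82 ± 0.25) was larger in calf 301 (1.00) than in calf 303 (0.65). EIF1AX, which encodes eIF1A, rose by 0.41 ± 0.0091. EIF5, which encodes the protein that makes eIF2 hydrolyse its GTP at the start codon, fell by the least of all called members (-0.28 ± 0.098, adjusted p = 0.0462), and did not pass without the block (adjusted p = 0.115) or with each array centred on its median (adjusted p = 0.0507). Its change was -0.17 without APP of calf 301.

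Among 6 genes of eIF2 and of its exchange factor eIF2B there were 1 rise, 2 falls and 3 genes that did not pass. These shares are near those of all genes, of which 23.0% rose and 29.7% fell. EIF2S1, which encodes eIF2 alpha, the subunit that stress kinases phosphorylate, stood at 0.40 and 0.39 in the APP arrays of calves 301 and 303, against -0.56 and -0.72 in their PBS arrays. It rose 2.05-fold (1.04 ± 0.11, adjusted p = 0.000183), with groups far apart, and came to 0.19 when scaled to the hybridization controls, where it was not called (adjusted p = 0.235). The gamma subunit gene EIF2S3 changed by -0.079 ± 0.082 (adjusted p = 0.524). EIF2B3 and EIF2B4, which encode eIF2B gamma and delta, fell. EIF2B3 stood at -0.40 and -0.12 in the APP arrays of calves 301 and 303, against 0.13 and 0.29 in their PBS arrays (-0.47 ± 0.089, adjusted p = 0.00615), and its 2 probe sets differed, with -0.88 for one (adjusted p = 0.00118 over probe sets) and -0.060 for the other. EIF2B4 stood at -0.14 and -0.22 in the APP arrays of calves 301 and 303, against 0.099 and 0.27 in their PBS arrays (-0.37 ± 0.18, adjusted p = 0.025, and 0.0509 without the block). Among those that did not pass, EIF2B2 had a mean change of 0.011, and EIF2B1 one of 0.30 that came from calf 303 (0.53) more than from calf 301 (0.076).

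Both measured eIF2 alpha kinase genes of the set fell, as did 29.7% of all genes. EIF2AK1, which encodes the haem-regulated kinase HRI, stood at -0.55 and -0.19 in the APP arrays of calves 301 and 303, against 0.16 and 0.22 in their PBS arrays, and fell 1.47-fold (-0.56 ± 0.20, adjusted p = 0.00479). EIF2AK2, which encodes PKR, the interferon-inducible kinase that binds double-stranded RNA, stood at -0.29 and -0.27 in the APP arrays of calves 301 and 303, against 0.64 and 0.033 in their PBS arrays, and fell 1.54-fold (-0.62 ± 0.44, adjusted p = 0.0128). No group overlapped, but for EIF2AK2 the PBS array of calf 301 was far above that of calf 303. Its probe sets changed by -0.93 and -0.31. The second changed by -0.72 in calf 301 and 0.099 in calf 303, its groups overlapped, and it did not pass in the test over probe sets (adjusted p = 0.26). The fall of the gene did not pass without the block (adjusted p = 0.0693). Nor did it pass without APP of calf 301 (change -0.61), APP of calf 303 (-0.63) or PBS of calf 301 (-0.32). Without PBS of calf 303 the change was -0.92. EIF2A and EIF2D, whose products can bring initiator tRNA to the ribosome without eIF2, changed by -0.20 and 0.064 and did not pass. EIF2A stood at -0.13 and -0.12 in the APP arrays of calves 301 and 303, against -0.014 and 0.16 in their PBS arrays, and EIF2D at -0.063 and 0.16 in the APP arrays of calves 301 and 303, against -0.072 and 0.037 in their PBS arrays, where the groups overlapped.

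Of 12 genes of eIF3, the largest initiation factor and the scaffold that joins mRNA to the small subunit, 7 rose, 1 fell and 4 did not pass, against 23.0% of all genes that rose and 29.7% that fell. When scaled to the hybridization controls, EIF3B (0.71) was still called, EIF3CL came to 0.06 (adjusted p = 0.705) and the other rises lay below 0. EIF3B stood at 0.60 and 0.57 in the APP arrays of calves 301 and 303, against -0.94 and -1.02 in their PBS arrays, and rose 2.95-fold (1.56 ± 0.041, adjusted p = 3.57e-05), with 1.27 and 1.85 for its probe sets. The probe set of EIF3CL, in human a near-identical copy of the subunit gene EIF3C, stood at 0.47 and 0.33 in the APP arrays of calves 301 and 303, against -0.45 and -0.57 in their PBS arrays, and rose 1.88-fold (0.91 ± 0.015), and whether its signal comes from one copy or the other was not tested. EIF3J, which encodes a loosely bound subunit, stood at 0.23 and 0.41 in the APP arrays of calves 301 and 303, against -0.32 and -0.34 in their PBS arrays, and rose 1.57-fold (0.65 ± 0.14). In these 3 genes the groups were apart. Smaller rises were those of EIF3K (0.58 ± 0.068), EIF3I (0.49 ± 0.025), EIF3L (0.45 ± 0.065) and EIF3G (0.36 ± 0.023). EIF3E was the subunit gene that fell (-0.40 ± 0.01, adjusted p = 0.0113). EIF3D (0.20), EIF3A (0.098), EIF3M (-0.019) and EIF3H (-0.15) did not pass. Across these 12 genes the calves' changes had a median gap of 0.034, against 0.147 over all genes.

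The eIF4 genes had a share of falls (30%) near the 29.7% of all genes, and a share of rises of 50%, against 23.0%. Of 10, 5 rose, 3 fell and 2 did not pass. EIF4A1, which encodes the RNA helicase of the cap-binding complex, stood at 0.44 and 0.44 in the APP arrays of calves 301 and 303, against -0.81 and -0.66 in their PBS arrays, and rose 2.25-fold (1.17 ± 0.11, adjusted p = 0.000111). EIF4G1, its scaffold, stood at 0.47 and 0.43 in the APP arrays of calves 301 and 303, against -0.64 and -0.72 in their PBS arrays, and rose 2.18-fold (1.12 ± 0.028, adjusted p = 0.000111). EIF4E, which binds the cap itself, stood at 0.32 and 0.41 in the APP arrays of calves 301 and 303, against -0.45 and -0.50 in their PBS arrays, and rose 1.79-fold (0.84 ± 0.099, adjusted p = 0.000449). Genes of all 3 subunits of eIF4F thus had both APP arrays above both PBS arrays, as did 36.6% of all genes. When scaled to the hybridization controls, EIF4A1 (0.32, adjusted p = 0.0406) was still called, while EIF4G1 came to 0.27 (adjusted p = 0.0803) and EIF4E to -0.013.

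EIF4A3, whose product is the helicase of the exon junction complex rather than of eIF4F, rose by 0.55 ± 0.016, and EIF4H, a helper of the helicase, by 0.40 ± 0.062 (adjusted p = 0.0118, and 0.0825 without the block), and both lay below 0 when scaled to the hybridization controls (-0.30 and -0.45). The change of EIF4H was 0.25 without APP of calf 301. The falls were those of the helicase paralog EIF4A2 (-0.47 ± 0.096, adjusted p = 0.0062), the scaffold paralog EIF4G3 (-0.32 ± 0.048, adjusted p = 0.0286, and 0.148 without the block) and the cap-binding relative EIF4E3 (-0.50 ± 0.14, adjusted p = 0.00591, and 0.259 without the block). EIF4E3 fell within each calf, but its APP and PBS arrays overlapped, with calf 303 higher than calf 301 in both treatments, and its probe sets changed by -1.18 and 0.18. Within the calves it changed by -0.40 (calf 301) and -0.60 (calf 303). In the fits without the block, which the difference between the calves enters, the change varied more. Its change was -0.21 without APP of calf 301, -0.79 without APP of calf 303, -0.89 without PBS of calf 301 and -0.11 without PBS of calf 303, with no call in any of these fits. That of EIF4G3 was -0.17 without APP of calf 301 and -0.20 without PBS of calf 303, also with no call. EIF4B (-0.0084) and EIF4E2 (-0.0038) did not pass, and the probe sets of EIF4E2 changed by -0.34 and 0.33. The repressor gene EIF4EBP1, whose product holds eIF4E away from eIF4G until mTORC1 phosphorylates it, stood at 0.36 and 0.32 in the APP arrays of calves 301 and 303, against -0.43 and -0.53 in their PBS arrays. It rose 1.76-fold (0.82 ± 0.037, adjusted p = 0.000435), with groups apart, and scaling to the hybridization controls took it to -0.034.

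The poly(A)-binding proteins link the tail of an mRNA to eIF4G. PABPC4 stood at 0.29 and 0.29 in the APP arrays of calves 301 and 303, against -0.43 and -0.37 in their PBS arrays, and rose 1.61-fold (0.69 ± 0.046, adjusted p = 0.000965, and a change of -0.16 when scaled to the hybridization controls). PABPC1, the main form in most cells, stood at -0.51 and -0.24 in the APP arrays of calves 301 and 303, against 0.079 and 0.30 in their PBS arrays, and fell 1.48-fold (-0.57 ± 0.037, adjusted p = 0.00247). The groups of each gene were apart, but the 4 probe sets of PABPC1 did not give 1 answer. The test over probe sets, where 23.6% of all fell, called a fall for those at -1.25 (adjusted p = 0.0011) and -1.09 (adjusted p = 0.00142), and not for those at -0.035 and 0.12. One of the falling probe sets carries the suffix of sets that may match more than 1 transcript. EIF6, whose product keeps the large ribosomal subunit from joining too early and serves in its assembly, stood at 0.48 and 0.39 in the APP arrays of calves 301 and 303, against -0.56 and -0.70 in their PBS arrays. It rose 2.09-fold (1.06 ± 0.031, adjusted p = 0.000139) with groups apart, and came to 0.21 when scaled to the hybridization controls, where it was not called (adjusted p = 0.177).

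**Figure D2:**
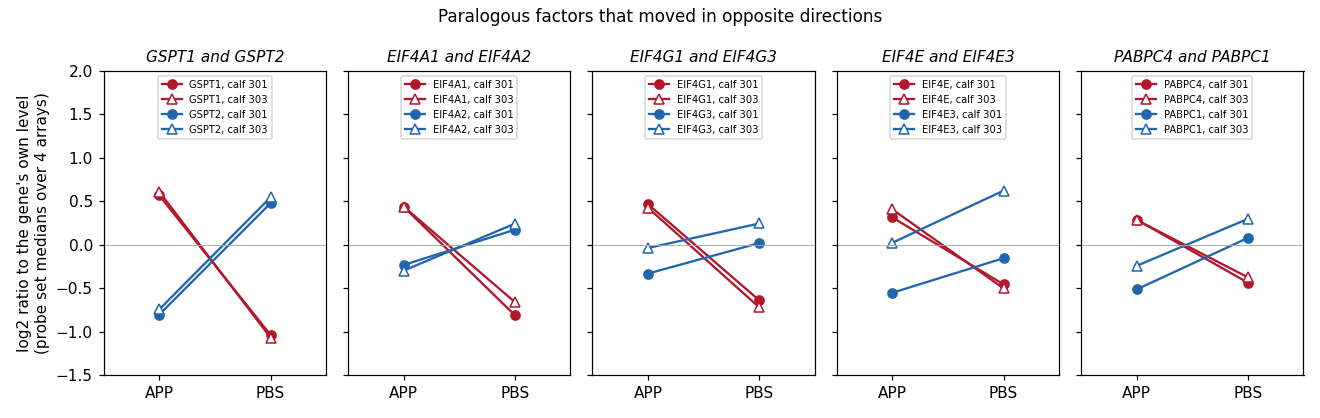
Log2 ratios (y axis) of 5 pairs of paralogous factors in the APP and PBS arrays (x axis), with a line for each calf (circles calf 301, triangles calf 303). In each pair one gene is higher in APP and its paralog lower in both calves, most of all for GSPT1 and GSPT2. Scaling of the arrays moves both genes of a pair alike. When scaled to the hybridization controls, the changes of EIF4E (-0.013) and PABPC4 (-0.16) lie below 0, as do those of their paralogs. EIF4E3 and PABPC1 are means of probe sets that changed on both sides of 0.

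Of 15 pairs of paralogs or related subunits with both genes measured, 6 held 1 gene that rose and 1 that fell. Among all genes 23.0% rose and 29.7% fell, and how often unrelated pairs hold opposite calls was not tested. EIF4A2 is in more than 1 of the 6, and the falls of EIF4G3 and EIF4E3 did not pass without the block. The log2 change of GSPT1 exceeded that of GSPT2 by 2.88 (calf 301) and 2.96 (calf 303). EIF4A1 exceeded EIF4A2 by 1.65 and 1.64, EIF4G1 exceeded EIF4G3 by 1.45 and 1.43, and EIF4E exceeded EIF4E3 by 1.17 and 1.51. The change of PABPC4 exceeded that of PABPC1 by 1.32 and 1.20, and that of EIF4A3 exceeded that of EIF4A2 by 0.96 and 1.08. An array factor cancels in these differences, which therefore do not depend on the scaling, while the opposite directions do. When scaled to the hybridization controls, EIF4E (-0.013), PABPC4 (-0.16) and EIF4A3 (-0.30) lay below 0, as did their paralogs. On that scale EIF4G1 (0.27) was not called, and GSPT1 (0.79) and EIF4A1 (0.32) were. Each difference compares 2 different probe designs, and the differences were not tested. Both genes rose in the pairs EIF1 with EIF1B and EIF4A1 with EIF4A3, and both fell for EIF2AK1 with EIF2AK2.

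**Figure D3:**
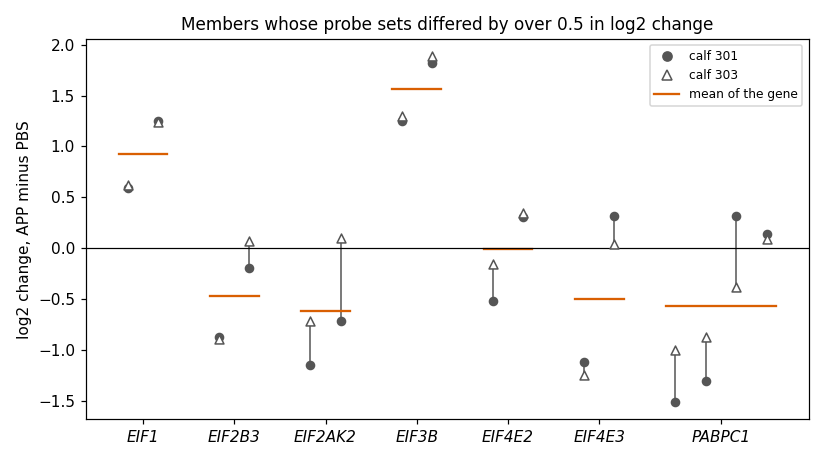
Log2 change (APP minus PBS, y axis) of each probe set of the 7 members whose probe sets differed by more than 0.5, with circles for calf 301, triangles for calf 303 and a line at the mean of the gene. The probe sets of EIF1 and EIF3B differ in size, while EIF4E2, EIF4E3 and PABPC1 have probe sets on both sides of 0.

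Of 7 genes named as elongation factors, 2 rose and 5 did not pass, a share of rises near the 23.0% of all genes. EEF1E1, filed here by its symbol although its product is a scaffold of the aminoacyl-tRNA synthetase complex, stood at 0.50 and 0.57 in the APP arrays of calves 301 and 303, against -0.83 and -0.92 in their PBS arrays. It rose 2.65-fold (1.41 ± 0.11, adjusted p = 5.87e-05) and stayed above 0 when scaled to the hybridization controls (0.56). EEF1D, which encodes a subunit of the exchange factor that recharges eEF1A with GTP, stood at 0.21 and 0.19 in the APP arrays of calves 301 and 303, against -0.24 and -0.29 in their PBS arrays, and rose 1.38-fold (0.47 ± 0.018, adjusted p = 0.00566). Both genes had groups apart, and EEF1D came to -0.39 when scaled to the hybridization controls. EEF2, the translocase, stood at 0.11 and 0.079 in the APP arrays of calves 301 and 303, against -0.10 and -0.095 in their PBS arrays, and changed by 0.19 ± 0.028 (adjusted p = 0.127), which did not pass although its groups were apart. The others that did not pass were EEF1B2 (0.18), EEF1A2 (-0.038), EEF1G (-0.05) and EEF1A1 (-0.17), the carrier of aminoacyl-tRNA and among the most abundant proteins of most cells.

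Enzymes that modify elongation factors moved both ways. EEF2K, which encodes the kinase that phosphorylates and slows eEF2, stood at -0.40 and -0.28 in the APP arrays of calves 301 and 303, against 0.48 and 0.20 in their PBS arrays. It fell 1.61-fold (-0.68 ± 0.28, adjusted p = 0.00308), with -0.79 and -0.58 for its probe sets. EEF1AKMT3, which encodes a lysine methyltransferase of eEF1A, stood at 0.21 and 0.19 in the APP arrays of calves 301 and 303, against -0.23 and -0.57 in their PBS arrays, and rose 1.51-fold (0.60 ± 0.22, adjusted p = 0.00403). Groups were apart for both, and both changes differed between the calves more than most members did. The rise of EEF1AKMT3 came to -0.25 when scaled to the hybridization controls. EEF2KMT, which encodes a methyltransferase of eEF2, stood at 0.017 and 0.11 in the APP arrays of calves 301 and 303, against -0.051 and -0.29 in their PBS arrays, and changed by 0.23 ± 0.23 (adjusted p = 0.127).

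The 2 calves gave similar changes across the 54 members (Pearson r = 0.966, Spearman rho = 0.969, as a description, since the genes share the same 4 arrays), with r = 0.930 over all genes. The median gap between the calves' changes was 0.082 for the members. Gaps above 0.3 were seen for 6, which were EIF2AK2, EIF2B1, EEF2K, EIF1AD, EEF2KMT and EEF1AKMT3, and with 1 array per calf and treatment they could not be tested. Between the animals themselves, EIF2S3 and EIF4E3 were higher in calf 303, at 1.27% of all genes called in that direction, and no member was lower, against 0.437%. EIF2S3 stood at 0.25 and 0.27 in the APP and PBS arrays of calf 303, against -0.40 and -0.26 in those of calf 301 (difference 0.59, SE 0.0971, adjusted p = 0.0407 in limma's test). EIF4E3 stood at 0.024 and 0.62 in calf 303, against -0.55 and -0.15 in calf 301 (difference 0.68, SE 0.102, adjusted p = 0.0312). Neither call held when each array was centred on its median. In limma's test over probe sets, the calf difference of EIF4E3 was 1.26 for one (adjusted p = 0.0126) and 0.094 for the other (adjusted p = 0.764). Neither probe set of EIF2S3 passed there (adjusted p of 0.0946 and 0.086). Of 6 alpha beta T cell markers, CD8B (2.30) and CD8A (1.59) were also higher in calf 303. The others of that list did not pass, with CD28 at 0.11, CD40LG at -0.03, FOXP3 at -0.078 and CD4 at -0.11. Of 11 gamma delta T cell and pan T cell genes, CD2 (1.10) was the 1 called higher in calf 303. The part of these genes in the differences of EIF2S3 and EIF4E3 was not tested.

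Other genes of protein synthesis were set beside the members, and their counts beside the 23.0% of all genes that rose and the 29.7% that fell. Of 18 genes of cytosolic aminoacyl-tRNA synthetases and their scaffolds, 12 rose and 2 fell with a median change of 0.34 (-0.52 when scaled to the hybridization controls), led by GARS1 (1.42), CARS1 (calf 301 1.31, calf 303 1.29) and EPRS1 (1.14). The falls were those of the scaffold genes AIMP1 (-0.85) and AIMP2 (-0.76). Of 68 ribosomal protein genes, 10 rose, 3 fell and 55 did not pass, with changes between -0.31 and 0.56 and a median of -0.047, and 0 of the 10 rises stayed above 0 when scaled to the hybridization controls. None of the 68 changed by at least 1.5-fold in both calves. By that rule 15 of the 54 factors were higher and 1 was lower, against 7.84% and 14.7% of all genes. The difference between the 2 groups of genes was not tested. Of 11 mitochondrial translation factors, 1 rose and 4 fell. TUFM, the mitochondrial counterpart of eEF1A, rose (0.27, or -0.58 when scaled to the hybridization controls), and the largest falls were those of MTIF2, the mitochondrial initiation factor 2 (-1.01), and MTRF1L, a mitochondrial release factor (-0.56).

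The lists of eIF2 alpha control and of mTORC1 had shares of calls near those of all genes (23.0% rose and 29.7% fell). Of 11 genes that control phosphorylation of eIF2 alpha, 3 rose and 4 fell. PPP1R15A, which directs a phosphatase to eIF2 alpha, rose by 2.63 and DNAJC3, an inhibitor of eIF2 alpha kinases, by 0.70, while IMPACT, an inhibitor of the kinase GCN2, fell by 2.64. EIF2AK3, the kinase gene PERK, did not pass (calf 301 -0.26, calf 303 0.41). Of 20 genes of mTORC1 and of kinases that act on translation factors, 5 rose and 7 fell, with rises of the mTORC1 inhibitor DDIT4 (1.79) and the ribosomal S6 kinase RPS6KA3 (1.14) and a fall of RPTOR, the mTORC1 subunit that binds its substrates (-1.47).

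Of 17 other regulators of initiation that bind mRNA or ribosomes, 6 rose (35.3%) and 5 fell (29.4%), against 23.0% and 29.7% of all genes. LARP4, which binds poly(A) and stabilises mRNA, rose (calf 301 1.34, calf 303 1.26), as did BZW2, a mimic of eIF5 (1.12). PDCD4, which inhibits the eIF4A helicase, stood at -0.79 and -0.38 in the APP arrays of calves 301 and 303, against 0.29 and 0.61 in their PBS arrays, and fell 2.05-fold (-1.04 ± 0.064), and FMR1, a repressor of translation, fell as well (-1.09 ± 0.27). The partners DENR and MCTS1, which act as 1 heterodimer in reinitiation, moved apart, with a rise of DENR (0.83 ± 0.19) and a fall of MCTS1 (-0.76 ± 0.11). Of 13 genes of ribosome recycling, rescue and factor maturation, 4 rose (30.8%) and 3 fell (23.1%). DPH3, needed for the diphthamide of eEF2, rose 3.87-fold (1.95 ± 0.12), METTL13, which methylates eEF1A, 3.04-fold (1.60 ± 0.20), and EEFSEC, the elongation factor for selenocysteine, by 0.59 ± 0.11. When scaled to the hybridization controls, the rises of PPP1R15A, DDIT4, RPS6KA3, LARP4, BZW2, DPH3, METTL13, GARS1, CARS1 and EPRS1 stayed above 0. Of these, RPS6KA3 (0.29, adjusted p = 0.0665), BZW2 (0.27, adjusted p = 0.0851) and EPRS1 (0.29, adjusted p = 0.0625) were not called in limma's test on that scale. DNAJC3 stood at -0.15 there, DENR at -0.02 and EEFSEC at -0.26.

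**Figure D4:**
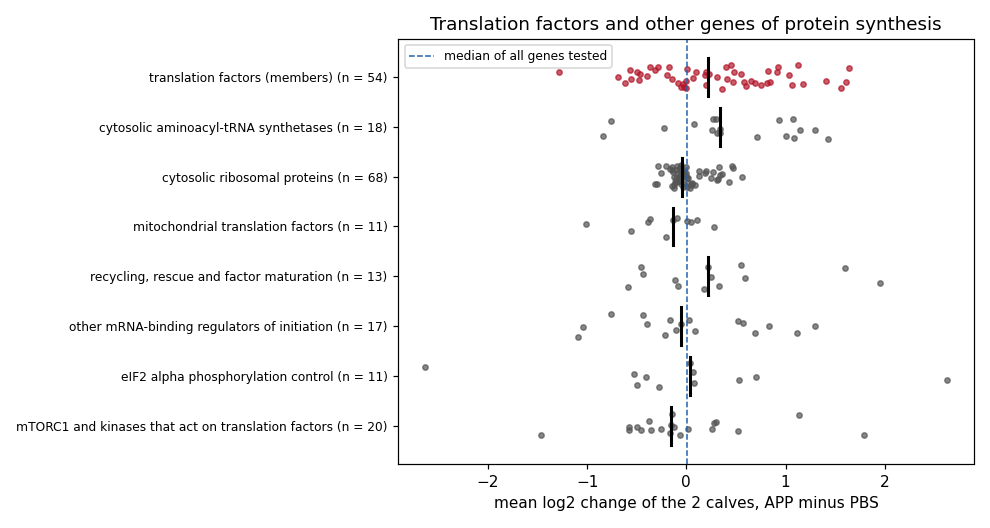
Mean log2 change of the 2 calves (APP minus PBS, x axis) of the 54 translation factors and of 7 other lists of protein synthesis genes, with a point for each gene, a bar at each list's median and a dashed line at the median of all genes. The factors (median 0.22) and the aminoacyl-tRNA synthetases (0.34) are spread to the right, the ribosomal proteins stay near 0, and all values would lie 0.85 lower if scaled to the hybridization controls.

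The share of rises among 12 markers of monocytes and dendritic cells was 25%, near the 23.0% of all genes. CD68 (2.31), FCN1 (0.62) and CD14 (0.46) were the 3 that rose, and FCN1 (-0.23) and CD14 (-0.39) fell below 0 when scaled to the hybridization controls. All 3 measured B cell genes fell (-1.04 to -0.56), 1 of them, BLK, also expressed in gamma delta T cells, and of 6 alpha beta T cell genes 2 rose and 1 fell. Of 11 gamma delta T cell and pan T cell genes, 7 fell and 1 rose, with a median of -0.47, where 29.7% of all genes fell. Whether their levels were at or near background is not known from ratios, and their part in the changes of the translation factors was not tested.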

How the data were processed

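RNA of gamma delta T cells from 2 calves was hybridised to 4 Affymetrix bovine arrays, with 15 µg of total RNA per labelling according to the labels' protocols. The submitters' processing notes name RMA, without a version, as the way the authors made the values. The deposited values are linear ratios of each probe set to its own median over the 4 arrays, a unit found from the values: once each array is multiplied by 1 factor, the median of a probe set comes to 1, with a largest deviation of 0.00051. The median ratio per array lay between 0.991 and 0.995. Arrays have no read depth, and their number limits the precision. Columns of samples outside the 4 numbered 0.

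The log2 of each ratio was analysed with no added scaling, with 112 control probe sets left out and 24016 tested. Of these, 13292 had 1 gene symbol in the platform table, 86 several and 10638 none, and 13263 of the first were found by identifier in a RefSeq gene table (ARS-UCD2.0, names only). Probe sets of a gene were averaged. The treatment was tested with limma 3.58.1 in R 4.3.3 (lmFit and eBayes, two-sided, calf as a block, Benjamini-Hochberg over 9155 genes, threshold 0.05), with 1 residual and 5.855 prior degrees of freedom (5.187 over probe sets). The same 2 animals are named in both groups, and the difference between the calves correlated between APP and PBS with r = 0.509 across genes. An exact permutation test of 2 arrays against 2 cannot go below p = 0.33 and was not used. The variance behind each p-value is moderated towards that of all genes, so it rests mostly on the spread over all genes and less on that of the gene between 2 animals. With arrays scaled to the hybridization controls the prior degrees of freedom were infinite. Every gene then had the same variance, and its own spread had no part in those p-values. The script was tested on simulated data.

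The members, the gene lists, the pairs and the tests were chosen with earlier results of these data known. In each of 12 role groups the 3 members with the largest absolute change are given by array, where the group has that many, together with other called members by mean change. Members that did not pass are named where a group has 5 or fewer, and up to 3 called genes of largest change stand for each other translation list. AIMP1, AIMP2, TUFM, EIF2AK3, PDCD4, DENR, MCTS1 and the calf comparison were added after their values were seen. Sequences were not used here.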

Additional observations from a re-analysis of the deposited data

How the results depend on the processing

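With arrays scaled to bioB, bioC and bioD, all genes gave 286 rises and 8182 falls in place of 2104 and 2717, and members 5 rises and 35 falls in place of 25 and 12, with a member median of -0.64 in place of 0.22. The variance was the same for every gene in that fit, so its counts differ from the main ones in the test as well. On that scale the rises of EIF1AD (-0.028), EIF1B (-0.10), EIF1AX (-0.44), EIF3J (-0.20), EIF3K (-0.27), EIF3I (-0.37), EIF3L (-0.40), EIF3G (-0.49), EIF4E (-0.013), EIF4A3 (-0.30), EIF4H (-0.45), EIF4EBP1 (-0.034), PABPC4 (-0.16), EEF1D (-0.39) and EEF1AKMT3 (-0.25) lay below 0, because the controls differ by 0.85 between the groups. Without the replicate block, which pairs the arrays of a calf, 1399 genes rose and 2161 fell, and 24 members rose and 7 fell. The 6 calls lost were EIF5, EIF2B4, EIF2AK2, EIF4H, EIF4G3 and EIF4E3, and the block changed no other call of a member. Requiring at least 1.5-fold in both calves left 718 rises and 1344 falls of all genes and 15 and 1 of the members.

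Leaving out 1 array without the block gave, for all genes, 1115 rises and 1720 falls without APP of calf 301, 1292 and 2012 without APP of calf 303, 794 and 1516 without PBS of calf 301, and 745 and 1305 without PBS of calf 303. In the same order members gave 20 rises and 3 falls, 20 and 6, 16 and 1, and 16 and 3, with medians of 0.26, 0.19, 0.27 and 0.21. With plain probe sets alone 2 member calls were lost, those of EIF5 and EIF2B3 (-0.060), and EEF1B2 had no such probe set. Centring on the median lost EIF5 and left 0 calf differences among members in place of 2, where limma's unadjusted p was under 0.05 for 6 members before centring. Robust moderation, and adding the 6 array control probe sets of EEF1A1 and EIF4E (chosen after seeing the data), changed no call of a member. Background correction, a filter on dim probe sets and a scan batch could not be tried on ratios without levels.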

Other observations

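The array carries control probe sets for the 5′ end, the middle and the 3′ end of 2 member transcripts, which were left out of the comparisons. For EIF4E, the 5′ set stood at 0.38 and 0.35 in the APP arrays of calves 301 and 303, against -0.50 and -0.67 in their PBS arrays, a mean change of 0.95 (calf 301 0.88, calf 303 1.03). The middle set changed by 0.99 (calf 301 0.86, calf 303 1.13) and the 3′ set by 0.86 (0.72 and 1.00), beside 0.84 for the gene's regular probe set. All 3 control sets had both APP arrays above both PBS arrays. For EEF1A1, the 5′ set changed by -0.11 (-0.13 and -0.093), the middle set by -0.23 (-0.19 and -0.27) and the 3′ set by -0.36 (-0.44 and -0.28), beside -0.021 and -0.32 for its 2 regular probe sets. These values were not tested.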
